A study of Mus musculus with 9 samples.

Results

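Interferon-stimulated effector genes encode the proteins with which a cell answers a type I or type II interferon signal. The 41 genes described here were taken from the deposited table of mouse embryonic fibroblasts by symbol, through the Ensembl gene ID without its version in GENCODE M21. All 41 were among the 16428 genes of the table, and all 41 passed the filter on low values, which left 14560 genes. The 9 libraries form 3 groups of 3, and every group carries the genotype CARM1f/f ER-Cre, a floxed Carm1 gene with a Cre recombinase that responds to estrogen receptor ligands. Carm1 encodes an arginine methyltransferase that modifies histones and transcriptional coactivators. The WT cells are labelled as untreated, the KO cells received 2 uM 4-OHT (an active form of tamoxifen, which turns the recombinase on) and the CARM1i cells received 1 uM of the CARM1 inhibitor TP-064. Growth lasted 6 days in each case. No group with 4-OHT but without a floxed gene, and none with the vehicle, was analysed here, so 4-OHT cannot be told apart from the deletion. A p-value here sets the difference between groups against the variation among the 3 libraries within groups. The labels do not say whether replicates came from separate cultures, so that variation may be technical.

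Type I interferons bind the receptor pair Ifnar1 and Ifnar2, whose kinases Jak1 and Tyk2 activate transcription factors in the cytoplasm. A complex of these with Irf9 binds the interferon-stimulated response element (ISRE), a promoter sequence built on repeated GAAA. The effectors behind that element recognise foreign nucleic acid, block translation or virus assembly, or attach the ubiquitin-like protein Isg15 to others. Fibroblasts answer interferon and can also make interferon beta themselves.

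The libraries held 28657018 to 35842771 reads assigned to genes. Levels are given as normalized read counts, the reads of a gene divided by the size factor of its library, and differences as log2 fold changes ± SE from limma on log2(value + 1). Of the fibroblast markers, 12 of 12 were in the table and their summed level was 379062 to 389125 in WT, 348428 to 367318 in KO and 354899 to 385506 in CARM1i, with Lum at 2.02 to 11.8 and Fap at 16.2 to 33.1 as the low members. Carm1 itself, counted over the whole gene so that the floxed exons are not separated from the rest, measured 1079, 1143 and 1091 normalized counts in WT, 794, 711 and 769.8 in KO and 1112, 1072 and 986 in CARM1i. Its log2 fold change was -0.54 ± 0.06 in KO (adjusted p = 5.493e-07) and -0.06 ± 0.06 in CARM1i (adjusted p = 0.496). CARM1i replicate 3 lay apart from the other libraries of its group on the third principal component, at 19.5 against -11 and -11.7, and the counts, the medians and each gene's change in CARM1i against WT are given for the 41 genes with and without it.

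After 4-OHT nearly the whole set was more abundant. Of the 41 genes, 38 rose in KO against WT, none fell and 3 were not called (Trim25, Ifi27 and Ifi27l2a). Over all genes tested, 21.4% rose and 41.9% were called in either direction (limma, Benjamini-Hochberg adjusted p under 0.05 over 14560 genes). All 9 libraries share 1 estimate of the spread, and fitted without CARM1i replicate 3 the KO counts were again 38 and 0, beside 22.5% higher, 21.9% lower and 44.4% in all. The median log2 fold change of the 41 genes was 0.51, a 1.42-fold difference, beside -0.0043 over all genes. A rise of at least 1.5-fold with a call was seen for 15 of the 41 genes, beside 626 of all 14560 genes. One of at least 2-fold was seen for 7, and no count over all genes was made at 2-fold. The 7 were Rsad2, Ifit2, Mx1, Cmpk2, Ifit3, Ifit3b and Herc6. In 39 of the 41 genes every KO library was above every WT library, against 26.7% of all genes, and in 1 gene, Ifi27, every KO library was below (25.9% of all genes). These are bulk libraries, so more RNA per cell and more cells that express a gene cannot be told apart.

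Other cell types that could carry such genes were measured by their markers in the same libraries. Of 12 macrophage and myeloid markers, 5 were in the table, and their summed normalized counts ran from 259 to 321 in WT, from 304 to 341 in KO and from 294 to 329 in CARM1i. Among them Cd68 rose and Cd14 fell in KO, both named after their values were seen, and the other 7, which include Ptprc and Adgre1, were not analysed here. Of 9 markers listed as lymphoid and plasmacytoid 1 was in the table, the integrin gene Itgax. It does not mark those cells alone, and it is not part of the myeloid sum. Itgax measured 0 to 0.861 in WT, 16.2 to 27.2 in KO and 1.01 to 2.86 in CARM1i, too low on average for the test. The endothelial markers (4 of 5) summed to 264 to 299.7 in WT, 288 to 341 in KO and 239 to 262 in CARM1i. None of the 3 tested was called in KO under limma (2 at an unadjusted p under 0.05), but every KO library of Cdh5 (0.57) and Kdr (0.69) was above every WT library. The epithelial markers (2 of 5) summed to 42.2 to 72.4 in WT, 103 to 145 in KO and 47.7 to 61.8 in CARM1i. Of these, Krt18 rose in KO by 1.58 on the log2 scale and Krt19 was at -0.51 without a call. Of 11 fibroblast markers tested, 7 fell in KO (20.5% of all genes) and 2 rose (21.4%). Among them, named after their values were seen, the collagen genes Col3a1 and Col1a1 were 2.42-fold and 1.92-fold lower, the receptor gene Pdgfra was 1.61-fold lower and the fibronectin gene Fn1 was 1.32-fold higher. The part of these differences in the response of the 41 genes was not tested.

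The inhibitor moved the same set by less. In CARM1i against WT, 30 of the 41 genes rose, none fell and 11 were not called, with a median log2 fold change of 0.23 (all genes -0.0047, with 10.5% called higher, 8.59% lower and 19.1% in all). Without CARM1i replicate 3 the median was 0.16 and 29 genes rose and none fell, against 10.3% higher and 8.07% lower (18.3% in all) over all genes. Gbp7 and Igtp then lost their calls and Ifi27l2a gained one. Fitted without the intensity trend, 16 of the 41 rose, beside 1018 called higher among the 14560 genes tested. In the main fit 3 genes (Rsad2, Mx1 and Cmpk2) rose with a call by at least 1.5-fold, beside 130 of all genes tested. In 30 genes every CARM1i library was above every WT library, against 16.7% of all genes.

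Both comparisons share the WT libraries, so the difference between deletion and inhibitor was tested directly. In CARM1i against KO, 35 genes were lower, 1 (Ifi27l2a) was higher and 5 were not called. Over all genes 11.5% were lower and 23.6% were called in either direction. The median was -0.28, and without CARM1i replicate 3 it was -0.34, with 37 genes lower (12.1% of all genes) and 2 higher (13.1% of all genes). With all libraries but without the intensity trend, 25 of the 41 were lower and none higher. In that fit 1199 of the 14560 genes tested were lower and 1291 higher. In 28 of the 41 genes all 3 CARM1i libraries lay between the WT and the KO libraries with KO highest, an arrangement found in 7.49% of all genes. A difference of at least 1.5-fold with a call was found for 4 genes, Ifit2, Rsad2, Herc6 and Ifit3b, all lower in CARM1i. Over all 14560 genes 173 were lower by as much with a call.

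**Figure D1:**
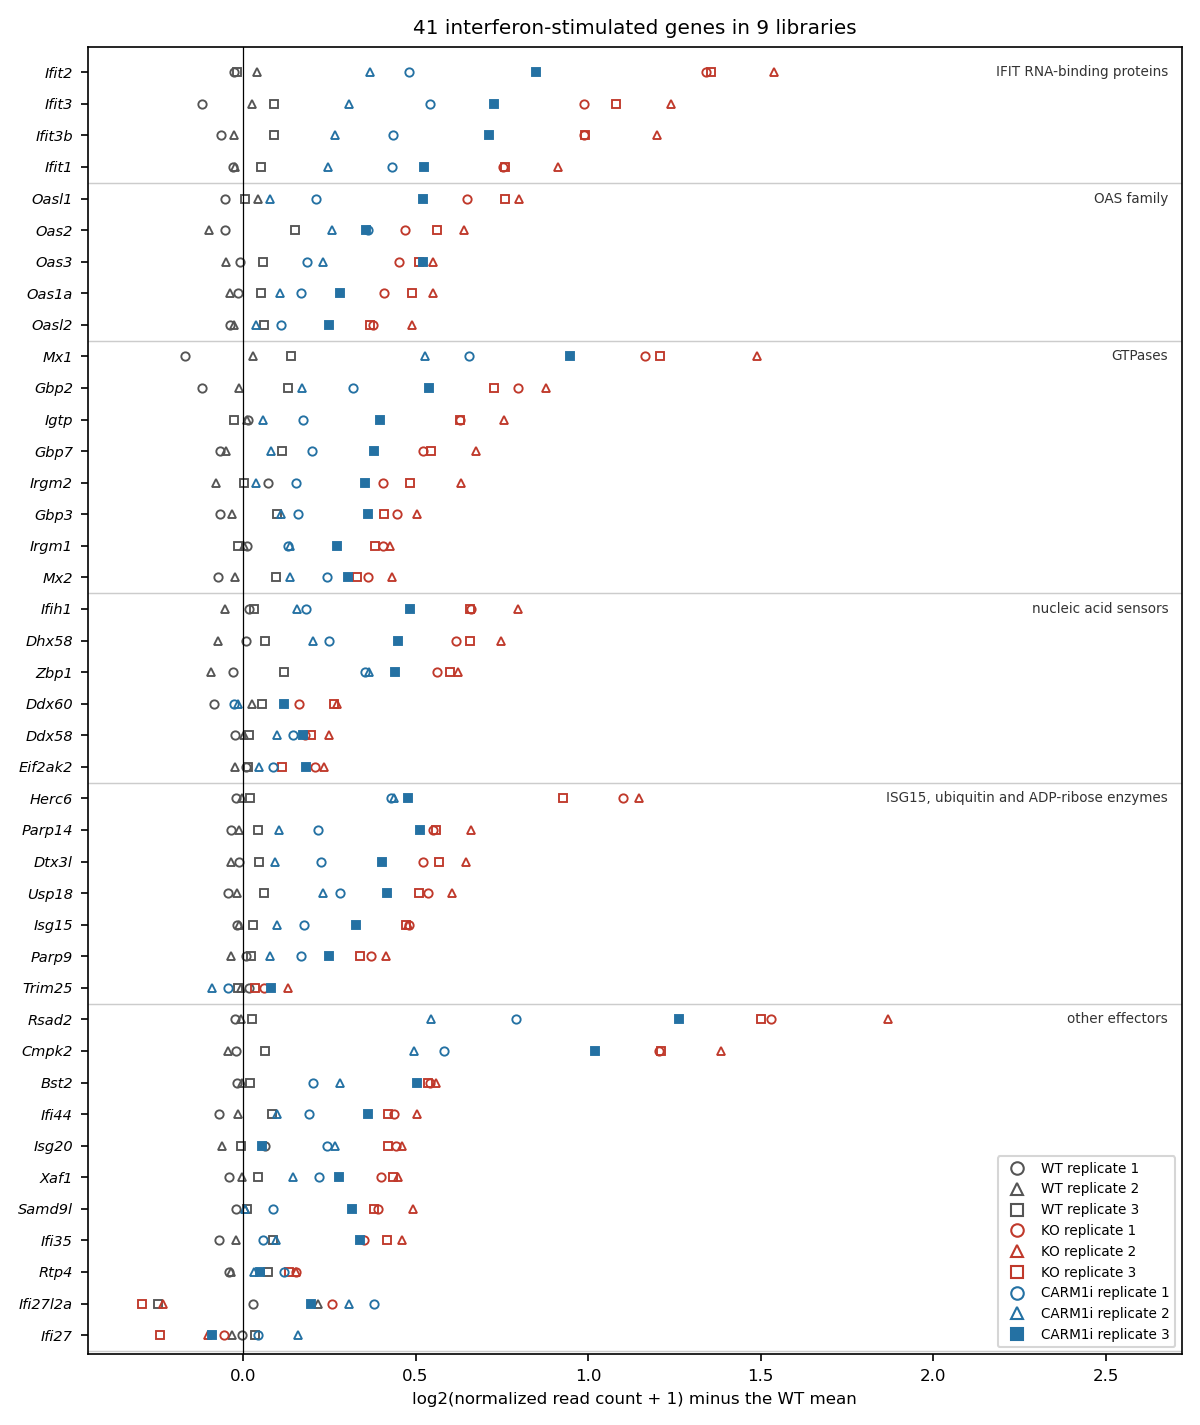
Each symbol is 1 library of 1 gene, plotted as log2(normalized read count + 1) minus the WT mean of that gene; genes are grouped by role and ordered by their KO fold change, and CARM1i replicate 3 is filled. The KO libraries lie to the right of the WT libraries in 39 of 41 genes, and the CARM1i libraries lie between the 2 groups in 28.

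To show what the set shares beyond its response, promoter windows were taken from RefSeq on GRCm38.p6 (the mm10 coordinates), from 250 bases before to 50 bases after the annotated start. Windows were matched by symbol for 30 of the 41 genes, and the other 11 were not searched. The 30 genes had 34 windows. In 24 of these the first 30 transcribed bases lay within the first 400 bases of a GENCODE transcript of the gene. The others may lie at a different start, so positions and missing cores hold for the windows as annotated. The ISRE core was searched as GAAA, any 2 bases and GAAA again, on either strand, with overlapping matches counted separately. It was found in 18 of the 30 genes (60%), against 3.75% of 10296 tested genes with a window and 3.99% of 27025 genes with a window in all. The 18 genes held 28 cores, 9 of them had at least 2, and 19 cores began in the 120 bases before the start, with a median position of -61.5 and a range of -188 to 32. The windows below hold the core in capitals with up to 10 bases on each side, 5′ to 3′ on the strand of the gene, for up to 2 genes of each role group by the smallest adjusted p in KO, each with the core nearest to its start (Ifit3 follows further on).
Ifit1, chr19:34640794-34640823, plus strand: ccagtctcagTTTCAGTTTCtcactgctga
Oas1a, chr5:120907520-120907549, minus strand: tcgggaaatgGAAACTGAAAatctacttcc
Oas3, chr5:120777715-120777744, minus strand: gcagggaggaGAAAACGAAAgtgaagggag
Irgm1, chr11:48871425-48871454, minus strand: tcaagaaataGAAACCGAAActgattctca
Gbp2, chr3:142620594-142620623, plus strand: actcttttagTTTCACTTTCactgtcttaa
Ifih1, chr2:62646206-62646233, minus strand: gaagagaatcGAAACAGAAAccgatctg
Ddx58, chr4:40239804-40239833, minus strand: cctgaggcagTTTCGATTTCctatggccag
Isg15, chr4:156200865-156200894, minus strand: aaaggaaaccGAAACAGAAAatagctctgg
Rsad2, chr12:26456553-26456582, minus strand: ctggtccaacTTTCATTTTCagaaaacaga
Bst2, chr8:71537577-71537606, minus strand: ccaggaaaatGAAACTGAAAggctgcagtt
The core runs with GAAA first in Oas1a, Oas3, Irgm1, Ifih1, Isg15 and Bst2, and reversed, with TTTC first, in Ifit1, Gbp2, Ddx58 and Rsad2. In Ifih1 and Ddx58 it lies past the annotated start, in the transcribed part.

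The longer form in which CT follows the second GAAA, which contains the core, was present in 11 of the 30 genes (36.7%, against 0.456% of tested genes), and the form TTCNNNGAA, known as the gamma-activated sequence, in 9 (30%, against 8.31%). All 18 genes with a core rose in KO (median log2 fold change 0.53, range 0.19 to 1.63), and 11 of the 12 with a window but no core rose, with a median of 0.45 and a range of 0.08 to 1.41. Ifit2, Cmpk2 and Herc6, all among the 7 genes past 2-fold, had no core in the windows searched, which may not hold every start. Mx1, also among the 7, had no window. Among tested genes other than the 41, 34.5% of the 368 with a core rose in KO against 22.7% of those without one. In CARM1i the corresponding shares were 17.1% and 11.2%. These tested genes still include the other interferon-stimulated genes listed further on, where they had a window. Of that list 40 of 50 rose in KO, and its part in these shares was not tested. A match to these letters is a description of the window and not a binding site.

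**Figure D2:**
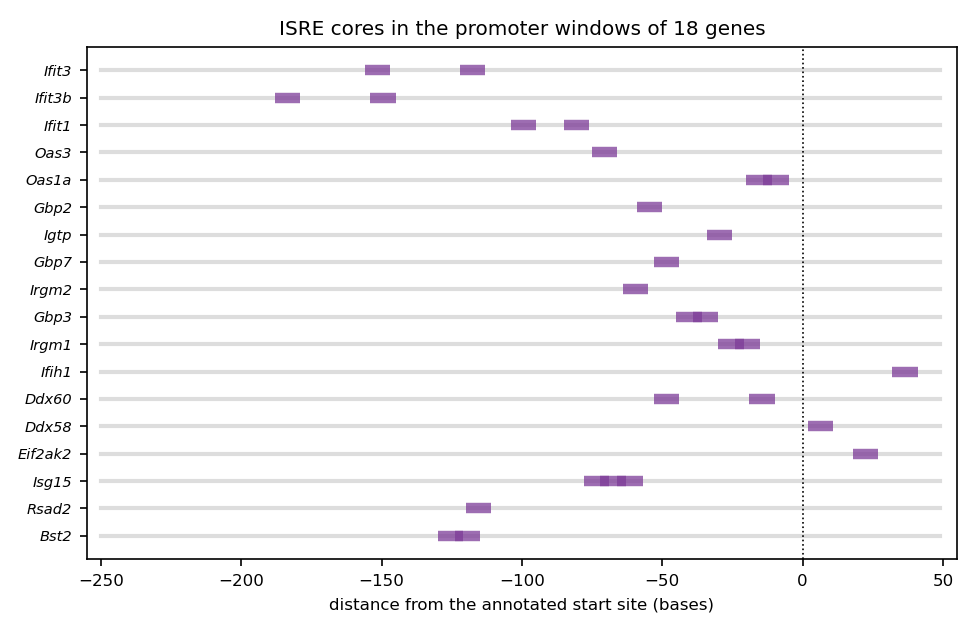
Positions of the ISRE core in the promoter windows of the 18 genes that held one, as distance in bases from the annotated start site (dotted line); each grey bar is a window and each purple block is 1 core, darker where cores overlap. Of the 28 cores, 19 began within 120 bases before the start.

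The IFIT proteins, which bind viral RNA that lacks the methyl marks of a host cap and stop its translation, had the highest median of the 6 role groups in KO. All 4 genes rose in KO (median log2 fold change 1.08) and in CARM1i (median 0.50, and 0.39 without CARM1i replicate 3), and all 4 were lower in CARM1i than in KO. For the counts of every role group, the shares over all genes were 21.4% higher in KO and 10.5% higher in CARM1i. In CARM1i against KO 11.5% of all genes were lower and 12.1% higher. Without CARM1i replicate 3, 10.3% were higher in CARM1i against WT, and 12.1% lower and 13.1% higher in CARM1i against KO. Ifit2 (chr19:34550694-34576419, plus strand) measured 7056, 7385 and 7097 in WT, 18188, 20861 and 18382 in KO and 10020.4, 9259.5 and 12933 in CARM1i. The groups did not overlap, and CARM1i replicate 3 was the highest of its group. The KO change of Ifit2 was 1.41 ± 0.08 (adjusted p = 1.743e-10), the CARM1i change was 0.57 ± 0.08 (0.42 without replicate 3), and CARM1i differed from KO by -0.85 ± 0.08 (adjusted p = 5.154e-07). Ifit1, the cap-binding member, measured 22225, 22299 and 23491 in WT, 38169, 42644 and 38355 in KO and 30578, 26886 and 32603 in CARM1i. Its changes were 0.81 ± 0.06 in KO and 0.40 ± 0.06 in CARM1i (adjusted p = 1.594e-09 and 4.591e-05), again with no overlap between any 2 groups. Without replicate 3 the CARM1i change of Ifit1 was 0.34.

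Ifit3 measured 18996, 21006 and 21943 in WT, 40917, 48695 and 43627 in KO and 30026, 25484 and 34101 in CARM1i, and its near copy Ifit3b measured 6597, 6776 and 7332 in WT, 13663, 15841 and 13696 in KO and 9315, 8293 and 11306 in CARM1i. Ifit3 changed by 1.10 ± 0.08 in KO and 0.53 ± 0.08 in CARM1i, and Ifit3b by 1.06 ± 0.08 and 0.47 ± 0.08. The CARM1i changes without replicate 3 were 0.42 and 0.35. Their longest transcripts are identical at 98% of 1697 aligned bases, so reads can be shared between them and each value is uncertain. The 250 bases before each start are shown because they carry the same pair of cores, in capitals, which begin at -156 and -122 in Ifit3 and at -188 and -154 in Ifit3b.
Ifit3, chr19:34583279-34583528, plus strand: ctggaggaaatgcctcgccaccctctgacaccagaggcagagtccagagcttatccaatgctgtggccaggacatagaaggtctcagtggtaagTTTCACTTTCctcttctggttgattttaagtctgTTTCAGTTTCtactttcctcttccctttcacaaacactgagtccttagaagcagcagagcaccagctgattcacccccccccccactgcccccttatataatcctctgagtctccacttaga
Ifit3b, chr19:34607707-34607956, plus strand: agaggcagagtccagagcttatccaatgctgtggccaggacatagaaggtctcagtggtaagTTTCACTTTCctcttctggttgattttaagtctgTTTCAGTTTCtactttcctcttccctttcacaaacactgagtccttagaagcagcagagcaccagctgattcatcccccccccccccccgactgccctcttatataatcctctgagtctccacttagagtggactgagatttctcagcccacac
The 2 windows were identical at 258 of 260 aligned bases, and Ifit3 was the most abundant of the 41 genes per length in WT, at 11833 normalized counts per kilobase of exon.

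**Figure D3:**
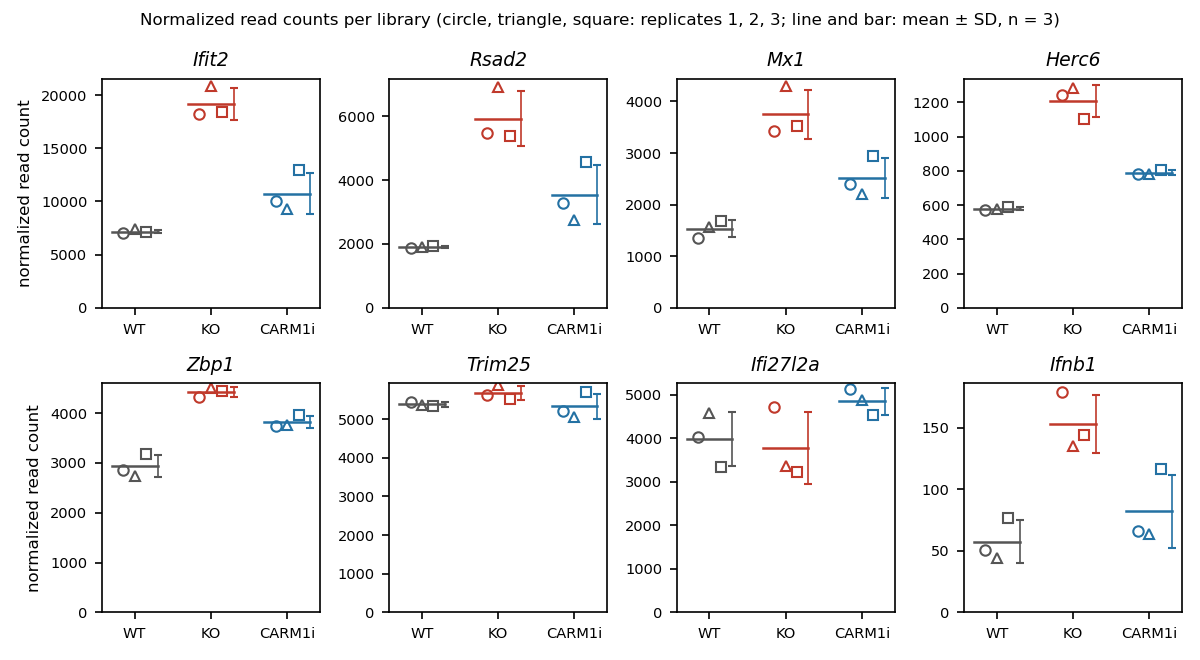
Normalized read counts in every library for 7 of the 41 genes and for the interferon gene Ifnb1; circles, triangles and squares are replicates 1, 2 and 3, lines are group means and bars are SD (n = 3). Ifit2, Rsad2, Mx1, Herc6 and Zbp1 separate the 3 groups, while Trim25 and Ifi27l2a do not.

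Active enzymes of the OAS family make oligoadenylates when they bind double-stranded RNA, and these switch on RNase L. All 5 genes rose in KO (median 0.51), 4 rose in CARM1i (median 0.27, and 0.15 without CARM1i replicate 3) and all 5 were lower in CARM1i than in KO. Oas1a measured 3214, 3162 and 3364 in WT, 4306, 4753 and 4561 in KO and 3651, 3499 and 3941 in CARM1i. It rose by 0.48 ± 0.05 in KO (adjusted p = 1.094e-07) and by 0.19 ± 0.05 in CARM1i (adjusted p = 0.007254). Oasl1, an OAS-like protein that restrains translation of Irf7, measured 1870.0, 1997 and 1946 in WT, 3039.7, 3371 and 3277 in KO and 2242, 2047 and 2781 in CARM1i. CARM1i replicates 1 and 2 of Oasl1 lay close to WT and replicate 3 lay closer to KO. Its changes were 0.74 ± 0.08 in KO and 0.27 ± 0.08 in CARM1i, where the adjusted p was 0.01736, 0.04505 without CARM1i replicate 3 and 0.07129 without WT replicate 1. Oas2 measured 1087, 1053 and 1253 in WT, 1563, 1760.1 and 1667 in KO and 1449.7, 1349 and 1445 in CARM1i, with changes of 0.56 ± 0.06 and 0.33 ± 0.06. Oasl2 measured 6253, 6301 and 6691 in WT, 8331, 9013 and 8270.3 in KO and 6925, 6582 and 7623 in CARM1i. It rose by 0.41 ± 0.05 in KO and was not called in CARM1i (0.13 ± 0.05, adjusted p = 0.06024, and 0.03525 without WT replicate 3 or 0.01415 without CARM1i replicate 2). Oas3 rose by 0.51 ± 0.06 in KO and 0.31 ± 0.06 in CARM1i. CARM1i replicate 3 of Oas3, at 4679, lay within the KO range, and the difference between CARM1i and KO (-0.19 ± 0.06, adjusted p = 0.03338) lost its call without KO replicate 2 or 3 (0.1307 and 0.09627) or CARM1i replicate 1 or 2 (0.1832 and 0.1418). Without replicate 3 the CARM1i changes were 0.14 for Oas1a, 0.15 for Oasl1, 0.31 for Oas2, 0.07 for Oasl2 and 0.21 for Oas3. The CARM1i to KO difference of Oas2 (adjusted p = 0.01014) reached 0.06839 without KO replicate 2 and 0.05263 without CARM1i replicate 2.

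Interferon-inducible GTPases fall into the Mx proteins, which form rings around viral nucleoprotein, the guanylate-binding proteins (Gbp), which coat and break the vacuoles of intracellular pathogens, and the Irgm group, which keeps these attacks off the cell's own membranes. All 8 rose in KO, with a median of 0.54. In CARM1i 7 rose (median 0.22), and 5 without CARM1i replicate 3 (median 0.14), while all 8 were lower in CARM1i than in KO. Mx1 (chr16:97447035-97462907, minus strand) measured 1362, 1561 and 1685 in WT, 3433, 4298 and 3534 in KO and 2408, 2208 and 2952 in CARM1i. The 3 groups of Mx1 did not overlap, and its changes were 1.29 ± 0.09 in KO (adjusted p = 4.405e-09) and 0.71 ± 0.09 in CARM1i (adjusted p = 3.439e-05, and 0.59 without CARM1i replicate 3). Its neighbour Mx2 rose by 0.38 ± 0.05 and 0.23 ± 0.05, a smaller difference from WT in both treated groups. The CARM1i to KO difference of Mx2 (-0.15 ± 0.05, adjusted p = 0.03361) was not called without KO replicate 1 or 2 (0.06655 and 0.154) or CARM1i replicate 1 or 2 (0.06315 and 0.174).

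Gbp2 measured 8215, 8847 and 9756 in WT, 15494, 16388 and 14751 in KO and 11126, 10044 and 12953 in CARM1i, with changes of 0.80 ± 0.07 in KO (adjusted p = 4.822e-08) and 0.34 ± 0.07 in CARM1i (adjusted p = 0.002034). Irgm1 measured 14972, 14863 and 14699.9 in WT, 19662, 19963 and 19368 in KO and 16247, 16301 and 17933 in CARM1i. Its WT libraries lay close together and below all others, and its changes were 0.41 ± 0.04 (adjusted p = 3.829e-08) and 0.18 ± 0.04 (adjusted p = 0.001354). Igtp, also known as Irgm3, measured 2703, 2696 and 2625 in WT, 4139, 4519 and 4135 in KO and 3015, 2786 and 3522 in CARM1i. CARM1i replicate 3 of Igtp stood above the other 2, and its CARM1i change of 0.21 ± 0.06 (adjusted p = 0.02213) was 0.12 without that library (0.07617), with the call also lost without WT replicate 2 or 3 (0.05912 and 0.06182). Gbp7 measured 2369, 2398 and 2685 in WT, 3564, 3957 and 3618 in KO and 2849, 2622 and 3228 in CARM1i. The CARM1i range of Gbp7 overlapped the WT range, and its change of 0.22 ± 0.06 (adjusted p = 0.02142) lost its call without CARM1i replicate 3 (0.07743) and without WT replicate 1 or 2 (0.09788 and 0.09684). Gbp3 rose by 0.45 ± 0.05 in KO and by 0.21 ± 0.05 in CARM1i, which was not called without WT replicate 1 or 2 (0.05865 and 0.05103). Irgm2 rose by 0.51 ± 0.07 in KO and was not called in CARM1i (0.18 ± 0.07, adjusted p = 0.06587, and 0.01121 without CARM1i replicate 2). The CARM1i changes without replicate 3 were 0.25 for Gbp2, 0.13 for Irgm1, 0.14 for Gbp7, 0.13 for Gbp3, 0.10 for Irgm2 and 0.19 for Mx2. Igtp and Irgm2 overlap on the same strand, so reads in the shared part cannot be assigned to one of them.

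Nucleic acid sensors detect viral RNA or DNA in the cytoplasm. All 6 rose in KO (median 0.41), 4 rose in CARM1i (median 0.21, and 0.15 without CARM1i replicate 3) and 4 were lower in CARM1i than in KO, or 6 without that library. The same shares over all genes were 21.4%, 10.5% and 11.5%, the last 12.1% without that library. Zbp1, which binds left-handed nucleic acid and can start necroptosis, measured 2867, 2746 and 3179.9 in WT, 4319, 4502 and 4438 in KO and 3739.7, 3769 and 3968 in CARM1i. Its 3 groups did not overlap, and it changed by 0.59 ± 0.05 in KO (adjusted p = 7.49e-09) and 0.39 ± 0.05 in CARM1i (adjusted p = 9.448e-06). Without CARM1i replicate 3 the second value was 0.36. Ifih1 encodes MDA5, the sensor of long double-stranded RNA, and measured 4612, 4395 and 4655 in WT, 7196, 7906 and 7186 in KO and 5170.1, 5071 and 6371 in CARM1i. CARM1i replicate 3 again exceeded replicates 1 and 2, and the changes were 0.70 ± 0.06 and 0.27 ± 0.06 (0.17 without it). Dhx58, whose product LGP2 modulates MDA5, measured 2258, 2136 and 2346 in WT, 3441, 3771 and 3544 in KO and 2671, 2585 and 3065 in CARM1i, with changes of 0.67 ± 0.06 and 0.30 ± 0.06 (0.23 without replicate 3).

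Ddx58 encodes RIG-I, the sensor of short RNA with a triphosphate end, and measured 9733, 9904 and 10003 in WT, 11185, 11738 and 11338 in KO and 10923, 10576 and 11146 in CARM1i. All KO and CARM1i libraries exceeded all WT libraries, by small amounts. The changes were 0.21 ± 0.03 in KO (adjusted p = 2.51e-05) and 0.14 ± 0.03 in CARM1i (adjusted p = 0.003617, and 0.05091 with quantile normalization), and CARM1i and KO differed by -0.07 ± 0.03 (adjusted p = 0.1171, and 0.04692 without CARM1i replicate 3). Eif2ak2, the translation-blocking kinase PKR, and the helicase gene Ddx60 rose in KO by 0.19 ± 0.04 and 0.23 ± 0.05, and neither was called in CARM1i (0.11 ± 0.04 and 0.03 ± 0.05). Without replicate 3 the CARM1i changes were 0.12 for Ddx58, 0.07 for Eif2ak2 and -0.02 for Ddx60. Without CARM1i replicate 2 Eif2ak2 was called (adjusted p = 0.02892).

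The Isg15 system attaches a ubiquitin-like protein to others, and Parp9, Parp14 and Dtx3l add ADP-ribose or ubiquitin. Of these 7 genes 6 rose in KO (median 0.55) and 6 in CARM1i (median 0.24, and 0.16 without CARM1i replicate 3), and 6 were lower in CARM1i than in KO. Herc6, the main ligase for Isg15 in the mouse, measured 571, 577 and 587 in WT, 1242, 1281 and 1102 in KO and 779.5, 783 and 807 in CARM1i. The spread within WT and within CARM1i was small and the groups were apart. Herc6 had the smallest adjusted p of the 41 genes in KO (1.06 ± 0.06, adjusted p = 1.059e-10), and its CARM1i change was 0.45 ± 0.06 with and 0.43 without replicate 3. It was also the least abundant of the 41 per length in WT, at 62.3 normalized counts per kilobase of exon. Usp18, which removes Isg15 and restrains signalling at Ifnar2, measured 14028, 14271 and 15062 in WT, 20953, 21983 and 20557 in KO and 17542, 16980.0 and 19277 in CARM1i. Its changes were 0.55 ± 0.04 in KO and 0.31 ± 0.04 in CARM1i (adjusted p = 7.755e-09 and 4.478e-05). Isg15 itself measured 4741, 4758 and 4897 in WT, 6703, 6686 and 6654 in KO and 5420.2, 5139 and 6019.8 in CARM1i. The KO libraries of Isg15 lay close together and above all others, and its changes were 0.48 ± 0.04 and 0.20 ± 0.04. Without replicate 3 the CARM1i changes of Usp18 and Isg15 were 0.26 and 0.14.

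Dtx3l measured 4326, 4262 and 4510.0 in WT, 6272, 6829.7 and 6475 in KO and 5109, 4654 and 5773 in CARM1i, and changed by 0.58 ± 0.06 and 0.24 ± 0.06. Its partner Parp9 overlaps it on the opposite strand and changed by 0.38 ± 0.04 and 0.17 ± 0.04. The kit marks strand, but the strand setting of the counting is not given in the sources used here, so reads in the overlap may be counted for either. Parp14 changed by 0.59 ± 0.07 and 0.28 ± 0.07. The CARM1i changes without replicate 3 were 0.16 for Dtx3l, 0.12 for Parp9 and 0.16 for Parp14. Trim25, a ubiquitin ligase that acts on RIG-I, was the exception in this group, with 5451, 5365 and 5330.2 in WT, 5615, 5887 and 5518 in KO and 5219.8, 5062 and 5695 in CARM1i. The 3 groups of Trim25 lay close together, at 0.08 ± 0.04 in KO (adjusted p = 0.1448) and -0.02 ± 0.04 in CARM1i (adjusted p = 0.8259, and -0.07 without replicate 3). Every KO library of Trim25 was above every WT library, without a call. Without CARM1i replicate 3 its CARM1i to KO difference of -0.14 was called (adjusted p = 0.004348).

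The remaining 11 genes act in diverse ways. In KO 9 rose (median 0.43), in CARM1i 5 rose (median 0.21) or 6 without CARM1i replicate 3 (median 0.18), and 8 were lower and 1 higher in CARM1i than in KO. Over all genes 21.4% rose in KO and 10.5% in CARM1i (10.3% without CARM1i replicate 3). In CARM1i against KO 11.5% of all genes were lower and 12.1% higher, so nothing is read from the 1 higher. Rsad2 encodes viperin, which turns a ribonucleotide into a chain terminator, and Cmpk2 is its neighbour on chromosome 12 and encodes a nucleotide kinase. Rsad2 (chr12:26442746-26456452, minus strand) measured 1866, 1891 and 1933 in WT, 5475, 6924 and 5368 in KO and 3284, 2765 and 4556 in CARM1i. That was the largest KO change of the set, 3.10-fold (1.63 ± 0.12 on the log2 scale, adjusted p = 4.756e-09), and its CARM1i change was 0.87 ± 0.12, or 0.67 without replicate 3. Cmpk2 measured 1329, 1309 and 1408 in WT, 3107, 3519 and 3124 in KO and 2018, 1901 and 2731 in CARM1i, with changes of 1.27 ± 0.09 in KO and 0.70 ± 0.09 in CARM1i (0.54 without replicate 3). For both genes the CARM1i libraries lay between WT and KO and replicate 3 was nearest to KO.

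Bst2 encodes tetherin, which holds budding virus at the cell surface, and measured 7867, 7956 and 8074 in WT, 11603, 11742 and 11552 in KO and 9176, 9687 and 11304 in CARM1i. CARM1i replicate 3 lay close to the KO libraries, and the changes were 0.55 ± 0.05 in KO and 0.33 ± 0.05 in CARM1i (0.24 without it). Xaf1, a pro-apoptotic factor, measured 9364, 9603 and 9919 in WT, 12700.3, 13151 and 13001 in KO and 11219, 10636 and 11669 in CARM1i, with changes of 0.43 ± 0.04 and 0.21 ± 0.04. Ifi44 measured 9726, 10118 and 10828 in WT, 13844, 14482 and 13661 in KO and 11663, 10943 and 13140.3 in CARM1i, with changes of 0.45 ± 0.05 and 0.22 ± 0.05. Samd9l, a growth and translation inhibitor, measured 11579, 11799 and 11839.7 in WT, 15399, 16523 and 15278 in KO and 12465, 11789.8 and 14615 in CARM1i. It rose in KO (0.42 ± 0.05) and was not called in CARM1i (0.14 ± 0.05, adjusted p = 0.0963), where CARM1i replicate 2 lay within the WT range. Without that library it was called (0.01194). Without replicate 3 the CARM1i changes were 0.18 for Xaf1, 0.15 for Ifi44 and 0.05 for Samd9l.

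Ifi35, Rtp4 and the exonuclease gene Isg20 rose in KO by 0.41 ± 0.06, 0.15 ± 0.04 and 0.44 ± 0.09 and were not called in CARM1i (0.16 ± 0.06, 0.07 ± 0.04 and 0.19 ± 0.09, and 0.08, 0.08 and 0.26 without replicate 3). Ifi35 was called in CARM1i without WT replicate 3 (adjusted p = 0.03038) and without CARM1i replicate 1 or 2 (0.02538 and 0.04667). In Isg20 CARM1i replicate 3 was the lowest of its group, within the WT range. Its difference from KO (-0.25 ± 0.09, adjusted p = 0.03943) was lost without CARM1i replicate 3 (0.1566) or 1 (0.05514), without KO replicate 1, 2 or 3 (0.08729, 0.1054 and 0.08113) and with the replicate block (0.05228). Rtp4 overlaps other annotated genes on both strands, so its reads are uncertain.

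Ifi27 and Ifi27l2a, neighbouring genes for small membrane proteins (chr12:103434211-103443680), did not follow the set. Ifi27 measured 643, 630.3 and 659.7 in WT, 620.3, 601 and 545 in KO and 664, 719.5 and 605 in CARM1i. All KO libraries were below all WT libraries, without a call (-0.13 ± 0.07, adjusted p = 0.1484), and CARM1i differed from WT by 0.04 ± 0.07, or 0.10 without replicate 3. Ifi27l2a measured 4024, 4586 and 3329 in WT, 4716, 3358 and 3219 in KO and 5136, 4883 and 4523 in CARM1i. KO replicate 1 lay above all WT libraries while KO replicates 2 and 3 lay near the lowest of them, and the KO change was -0.09 ± 0.11 (adjusted p = 0.563). Without KO replicate 1 it was -0.26 and called (0.02786). In CARM1i the change was 0.29 ± 0.11 (adjusted p = 0.08067), and it was called without CARM1i replicate 3 (0.34, 0.03806), WT replicate 2 (0.03148) or KO replicate 1 (0.01566) and with the replicate block (0.0284). Ifi27l2a was the gene of the 41 that was higher in CARM1i than in KO (0.38 ± 0.11, adjusted p = 0.01936). That call was lost without KO replicate 2 or 3 (0.1108 and 0.1286) or CARM1i replicate 1 or 2 (0.08038 and 0.05104). Ifi27 was called higher there without CARM1i replicate 3 (0.23, adjusted p = 0.0196).

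**Figure D4:**
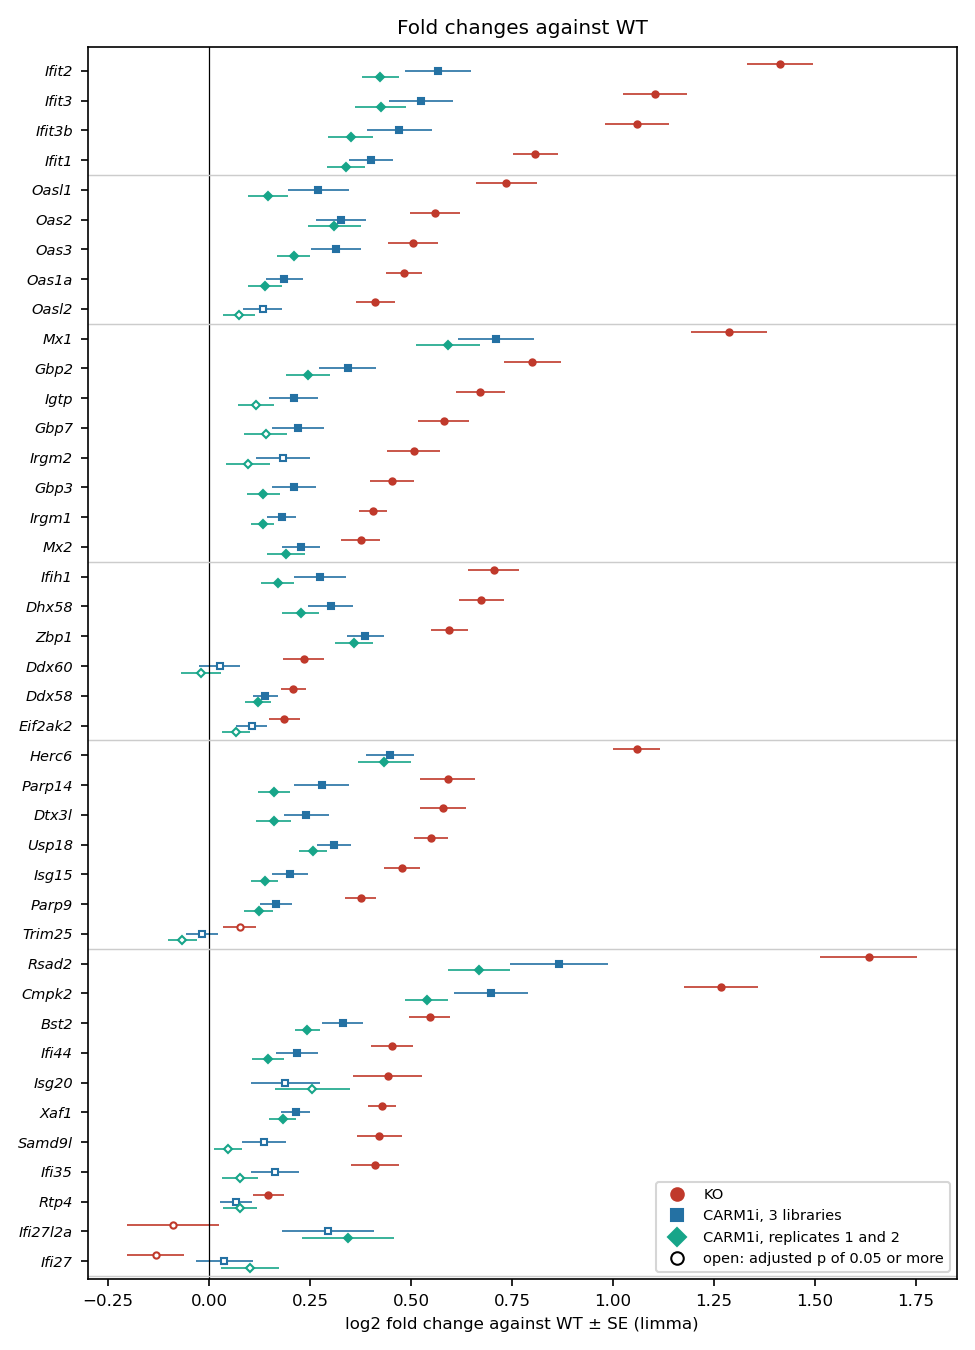
Log2 fold change against WT ± SE from limma for the 41 genes, in KO (circles), in CARM1i with 3 libraries (squares) and in CARM1i without replicate 3 (diamonds); open symbols were not called. The KO value exceeds the CARM1i value for every gene except Ifi27 and Ifi27l2a.

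On the genome, 25 of the 41 genes lay in 10 clusters with gaps under 1 Mb. In the Ifit cluster (chr19:34550694-34650009) the KO changes ran from 0.81 to 1.41, and the Rsad2 and Cmpk2 pair (chr12:26442746-26479837) had the 2 values 1.63 and 1.27. The Oas cluster (chr5:120730333-120907521) spanned 0.48 to 0.56, and the Gbp cluster (chr3:142530342-142638008) spanned 0.45 to 0.80. Mx1 and Mx2 (chr16:97447035-97560900) lay apart in size, at 1.29 and 0.38.

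Within each group the 41 genes also tended to be highest in the same library. WT replicate 3 was the highest WT library for 33 genes (36.3% of all genes tested), KO replicate 2 the highest KO library for 38 (31.3%) and CARM1i replicate 3 the highest CARM1i library for 36 (36.3%). The median over the 41 genes of log2 values minus the WT mean was -0.024, -0.02 and 0.05 in the WT libraries. For KO replicates 1, 2 and 3 it was 0.47, 0.56 and 0.51. For CARM1i replicates 1, 2 and 3 it was 0.20, 0.14 and 0.36. The lowest CARM1i library was thus above the highest WT library and the highest CARM1i library was below the lowest KO library. The same median over all genes tested stayed between -0.0034 and 0.0022.

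**Figure D5:**
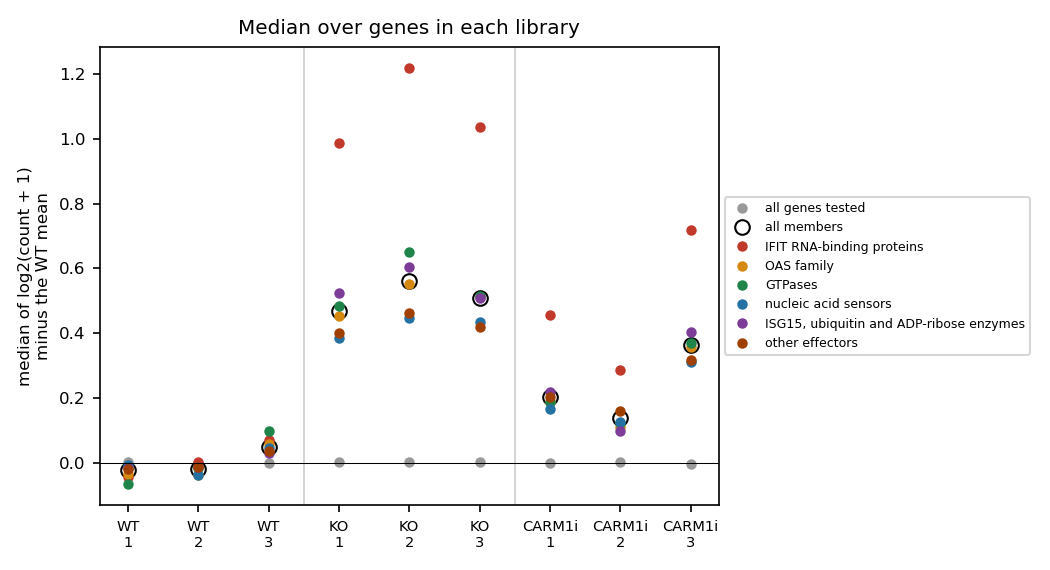
Median over genes of log2(normalized read count + 1) minus the WT mean, for each library and role group, with the 41 genes together as open black circles and all genes tested in grey. The 41 genes sit at 0.14 to 0.36 in the CARM1i libraries and at 0.47 to 0.56 in the KO libraries, and the IFIT group is highest in each of these 6.

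Upstream of the effectors, the ligand transcripts were scarce. Of 9 interferon genes listed, 2 were in the table. Ifnb1, the interferon that fibroblasts are known for, measured 50.8, 44 and 77 in WT, 179, 135 and 144 in KO and 65.8, 63.9 and 116 in CARM1i. The KO libraries were above all others, and CARM1i replicate 3 was above the other 2 of its group. Ifnb1 rose in KO by 1.43 ± 0.23 (adjusted p = 7.004e-05). In CARM1i its change was 0.49 ± 0.23 (adjusted p = 0.1587), with 0.72 without WT replicate 3 (adjusted p = 0.04084) and 0.22 without CARM1i replicate 3 (adjusted p = 0.5532). CARM1i differed from KO by -0.94 ± 0.23 (adjusted p = 0.006564, and 0.0629 without the intensity trend), or -1.21 without CARM1i replicate 3. Ifna4, a member of a family of near-identical genes that can share reads, measured 4.31, 10.8 and 12.8 in WT, 31.3, 18.1 and 27.7 in KO and 6.07, 9.53 and 27.8 in CARM1i. Its KO change of 1.45 ± 0.49 (adjusted p = 0.02281) was not called without WT replicate 1 (0.1215) or KO replicate 1 or 3 (0.08314 and 0.07239), and CARM1i was not called (0.44 ± 0.49, and -0.14 without replicate 3), where replicate 3 lay within the KO range. CARM1i and KO differed by -1.02 ± 0.49 without a call (adjusted p = 0.1503), and by -1.60 with a call (0.01416) without CARM1i replicate 3.

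Of 8 tested genes for receptors and their kinases, 4 were called in KO, beside 41.9% of all genes, so nothing is read from the count. There 1 rose in KO (Ifngr2, 0.20 ± 0.05) and 3 fell (Jak2 at -0.25 ± 0.04, Ifngr1 at -0.27 ± 0.06 and Il10rb at -0.22 ± 0.07, the last not called without WT replicate 3, adjusted p = 0.09038). None of the 8 was called in CARM1i under limma (2 at an unadjusted p under 0.05). The type I receptor genes, named after their values were seen, stood at -0.05 ± 0.05 for Ifnar1 and -0.08 ± 0.06 for Ifnar2 in KO. Among the transcription factors of the pathway, Irf7, which amplifies interferon transcription, measured 11691, 12343 and 12715 in WT, 16777, 17522 and 16383 in KO and 14495, 13852 and 16455 in CARM1i and rose by 0.46 ± 0.05 in KO and 0.28 ± 0.05 in CARM1i (0.21 without replicate 3). Stat2 rose by 0.30 ± 0.03 and 0.17 ± 0.03 (0.16 without replicate 3). Irf1 and Irf5 rose in KO (0.31 ± 0.05 and 0.29 ± 0.09) and were not called in CARM1i (0.13 ± 0.05 and 0.13 ± 0.09, and 0.09 and 0.06 without replicate 3), though Irf1 was called without CARM1i replicate 1 (adjusted p = 0.034). The KO call of Irf5 was lost without WT replicate 2 (0.0766) or KO replicate 2 (0.05564). Irf9, named after its value was seen, was at -0.07 ± 0.04 in KO (adjusted p = 0.1859).

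Sensor adaptors and kinases were mixed. Of 9, 6 rose and 1 fell in KO, where 21.4% and 20.5% of all genes did, and 3 rose in CARM1i (10.5% of all genes). Without CARM1i replicate 3, 2 rose and 1 fell in CARM1i, beside 10.3% and 8.07% of all genes. Tlr3, the endosomal receptor for double-stranded RNA, measured 363, 309 and 361 in WT, 688, 826 and 672 in KO and 411, 412 and 564 in CARM1i and rose by 1.08 ± 0.11 in KO and 0.41 ± 0.11 in CARM1i. The second call was lost without WT replicate 2 (adjusted p = 0.08818) or CARM1i replicate 3 (0.06029), when the change was 0.26. Ikbke, a kinase that activates Irf3 and Irf7, rose by 0.59 ± 0.05 and 0.26 ± 0.05 (0.25 without replicate 3). The DNA sensor gene Cgas fell by 0.69 ± 0.11 in KO, from 505, 441 and 435 in WT to 306, 294 and 257 in KO, and its CARM1i change of -0.22 ± 0.11 was called without CARM1i replicate 3 (-0.35, adjusted p = 0.01517). Myd88 and Tlr4 rose in KO by 0.37 ± 0.05 and 0.35 ± 0.06, and in CARM1i they stood at 0.08 ± 0.05, not called, and 0.25 ± 0.06, called (0.04 and 0.20 without replicate 3). Of 4 feedback inhibitors 1 was called in KO, a share near that of all genes called higher (21.4%), from which nothing is read. It was Socs1 (0.23 ± 0.08, adjusted p = 0.03696), a call lost without WT replicate 1 or 2 (0.1118 and 0.1236), KO replicate 2 or 3 (0.111 and 0.09807), under DESeq2 (0.06938) and with values rescaled to a common total (0.05526). None of the 4 was called in CARM1i (1 at an unadjusted p under 0.05).

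A wider list of other interferon-stimulated genes, 50 of 51 in the table, served as the comparison nearest to the 41. In KO 40 of the 50 rose and 1 fell (median 0.43), where 21.4% of all genes rose. In CARM1i 21 rose and 1 fell (median 0.15, with 10.5% of all genes higher), and 18 and 1 without CARM1i replicate 3 (median 0.09, with 10.3%). Set against KO, 38 were lower and 1 higher in CARM1i (median -0.28, with 11.5% of all genes lower), and 42 and 1 without replicate 3 (median -0.33, with 12.1%). The Schlafen gene Slfn2 measured 2118, 2058 and 2404 in WT, 4811, 4900.2 and 4582 in KO and 3763, 3608 and 3865 in CARM1i and rose by 1.12 ± 0.05 in KO and 0.77 ± 0.05 in CARM1i. Slfn5 rose by 0.94 ± 0.05 and 0.45 ± 0.05, the GTPase gene Tgtp1 by 0.75 ± 0.03 and 0.33 ± 0.03, and the helicase gene Znfx1 by 0.77 ± 0.04 and 0.38 ± 0.04. The 1 gene that fell in both was Slfn9, which measured 2587, 2469 and 2455 in WT, 1434, 1541 and 1437 in KO and 2203, 2162 and 2169 in CARM1i and stood at -0.77 ± 0.04 in KO and -0.20 ± 0.04 in CARM1i. The CARM1i changes without replicate 3 were 0.75 for Slfn2, 0.37 for Slfn5, 0.34 for Tgtp1, 0.32 for Znfx1 and -0.20 for Slfn9.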

How the data were processed

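Poly(A) RNA of 9 libraries was sequenced with a kit that marks strand, per the labels' protocols. The authors deposited normalized values (a signal per gene, unit reads divided by a size factor). The submitters' processing notes name the mm10 build, DESeq 1.18.0, TopHat2 2.0.10 and HTSeq 0.6.0. Which annotation was counted, and with what strand setting, is not given in the sources used here. Whole reads were recovered from the steps of the values (100% of values whole within 0.000001 reads), which gave 28657018 to 35842771 reads per library, and each of the 16428 genes had at least 10 reads in at least 1 library. Of the gene IDs, 16413 matched GENCODE M21 without their version (15078 with it) and 15 did not.

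Differences were tested on log2(value + 1) by limma (version 3.58.1, R version 4.3.3) with its trend over intensity, for the 14560 genes with a mean of at least 10, in 1 fit of all 9 libraries and 3 groups (6 residual degrees of freedom), with Benjamini-Hochberg adjustment over all genes and a threshold of 0.05. Every adjusted p is from this test unless another tool is named. Alternatives were quantile normalization, a common total, other filters and pseudocounts, limma without the trend, recovered reads in DESeq2 1.42.0 or edgeR 4.0.16, fits of 2 groups, a replicate block, stricter thresholds, and each library left out in turn. The edgeR test on recovered reads called 6150 genes for KO and 2821 for CARM1i, each set against WT, and 3471 between both treatments. Scripts were tested on simulated data. Promoter windows were RefSeq's on GRCm38.p6, searched with Python 3.11.15, pandas 2.3.3, numpy 2.4.6 and Biopython 1.88, and plots were drawn with matplotlib 3.10.9.

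The 41 genes and the other lists were chosen with earlier results of these data known. Per-library values are given for up to 4 genes of a role group (6 for the mixed group) by smallest adjusted p in KO, and for genes whose CARM1i call ended or appeared without replicate 3. Of each pathway list up to 5 genes by smallest adjusted p are named, and called members of lists of up to 10 may be. Replicates of 1 group differed by more than sampling noise (chi-square per gene 2.40 to 7.71). One pathway gene is not reported here.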

Additional observations from a re-analysis of the deposited data

How the results depend on the processing

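Leaving out 1 library at a time, the genes of the 41 called numbered 38 to 39 in KO against WT, 27 to 35 in CARM1i against WT and 31 to 39 in CARM1i against KO. The other interferon-stimulated genes called numbered 39 to 42, 17 to 29 and 34 to 43 in the same order. The medians of the 41 ran from 0.48 to 0.55, from 0.16 to 0.29 and from -0.34 to -0.23. With at least a 1.5-fold change required, 15, 3 and 4 of the 41 and 16, 1 and 3 of the other interferon-stimulated genes passed, and over all genes 1436, 281 and 522 (6100, 2784 and 3436 without that requirement). Without the intensity trend 16 of the 41 were called in CARM1i against WT and 1797 of all genes. Calls then ended for Oas1a, Oas3, Oasl1, Mx2, Gbp2, Gbp3, Gbp7, Igtp, Ifih1, Isg15, Dtx3l, Parp9, Parp14 and Ifi44. Their limma adjusted p ran from 0.05258 (Mx2) to 0.1559 (Igtp). In CARM1i against KO the same fit called 25 of the 41 and 2490 of all genes. There it ended the calls of Oas2, Oas3, Mx2, Gbp3, Irgm2, Ddx60, Parp14, Bst2, Ifi44, Ifi27l2a and Ifi35. At an adjusted p under 0.01, 4591, 1668 and 2155 of all genes were called. Values rescaled to a common total gave 2837 higher and 3285 lower genes in KO (3114 and 2986 in the values as deposited) and 1346 and 1510 in CARM1i (1533 and 1251). The correlation of same-numbered deviations ran from -0.087 to 0.0268, and that of deviations with different numbers from -0.0373 to 0.0742. With 3 libraries in a group these values cannot tell whether the replicate numbers pair the libraries. With the replicate block 38, 32 and 35 of the 41 were called and 41, 21 and 38 of the other interferon-stimulated genes. DESeq2 ended the CARM1i call of Oasl1 (adjusted p = 0.07202) and the CARM1i to KO calls of Oas3 (0.1443, and 0.06447 with quantile normalization), Isg20 (0.06353) and Ifi27l2a (0.1544), and it called Ifi35 (0.04211) and Oasl2 (0.04705) in CARM1i. Some values not called in the main fit changed sign, given here as the range over the libraries left out. In KO Ifi27l2a ran from -0.26, which was called without KO replicate 1 (limma adjusted p = 0.02786), to 0.0188. In CARM1i against WT Ddx60 ran from -0.0207 to 0.0537, Trim25 from -0.0662 to 0.0187, Ifi27 from -0.0232 to 0.10, Ifna4 from -0.14 to 0.87, Ifngr2 from -0.0152 to 0.0657 and Ifnar1 from -0.0245 to 0.0556. In CARM1i against KO Ifnar2 ran from -0.0356 to 0.0193 and Irf9 from -0.0088 to 0.0438. Ifnar1 in CARM1i was -0.0191 with quantile normalization and -0.00875 with a common total. The cause was not tested. Depth limits chiefly the genes of low count, such as Ifna4, listed at 4.31 to 12.8 normalized counts in WT.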

Other observations

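Several interferon-stimulated genes outside the 41, chosen after their values were seen, rose in KO by amounts within the range of the IFIT group, 0.81 to 1.41. The guanylate-binding protein gene Gbp6 measured 416, 434 and 475 in WT, 915, 1025 and 995 in KO and 658, 618 and 651 in CARM1i (normalized counts), with log2 fold changes of 1.15 ± 0.07 in KO and 0.54 ± 0.07 in CARM1i (0.53 without CARM1i replicate 3). The GTPase gene Iigp1 measured 4118, 4348 and 4875 in WT, 8540.0, 9586 and 8211 in KO and 6111, 5279.7 and 6733 in CARM1i, with changes of 0.98 ± 0.07 and 0.44 ± 0.07 (0.36 without it). Both lay between WT and KO in every CARM1i library. Cxcl10, a chemokine that draws T cells, measured 1203, 1175 and 1267 in WT, 2636, 3098 and 2332 in KO and 1364, 1083 and 1969.5 in CARM1i. It rose in KO (1.14 ± 0.14), and it was not called in CARM1i (0.23 ± 0.14, adjusted p = 0.2817 by limma, and a change of 0.00044 without CARM1i replicate 3), where replicate 2 lay below all WT libraries and replicate 3 above them. The membrane proteins that block virus entry had KO changes of -0.36 ± 0.19 for Ifitm1 and 0.01 ± 0.05 for Ifitm2, neither called, and 0.15 ± 0.04 for Ifitm3, which was called.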
